A study of Rattus norvegicus with 65 samples.

Results

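The mitochondrial ribosomal protein genes of the rat hypothalamus were examined in 65 libraries, 1 per animal. Members were the protein-coding genes of the count table whose symbol began with Mrpl or Mrps followed by a digit. This gave 76 genes of 22926 protein-coding genes and 38513 genes in all, with 46 Mrpl and 30 Mrps symbols. Symbols were matched with a capital first letter, and 3 further rows spelled mrpl9, mrpl11 and mrpl24 were counted only in an alternative. Their products are nuclear-encoded, are made in the cytosol and are imported into mitochondria. There they assemble with ribosomal RNA of the mitochondrial genome into a small subunit, which reads the messenger RNA, and a large subunit, which joins the amino acids. This ribosome translates only the few proteins that mitochondrial DNA encodes, all of them parts of the respiratory chain complexes and ATP synthase, which neurons rely on for their energy supply.

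The animals were male Wistar rats of 9 to 10 weeks at the start, and in the groups other than lean, 6 weeks of a high-fat diet induced obesity. The groups were Roux-en-Y gastric bypass (RYGB, n = 14), sham operation (Sham, n = 11), food restriction to the body weight course of the RYGB-treated animals (BWM, n = 7), saline (n = 8), liraglutide at 0.4 mg/kg/day (n = 5), PYY3-36 at 0.1 mg/kg/day (n = 4), both hormone treatments together (n = 10) and lean animals (n = 6), whose diet the labels do not give. Liraglutide was injected, PYY3-36 was delivered by minipump, and saline-treated animals received saline by both routes, whereas sham-treated animals underwent an operation. The abstract of the study lists the BWM group as sham plus weight matching, while its methods describe only the food restriction for it. Tissue was taken after 10 h of fasting, 4 weeks after the intervention. The experiment ran in 2 periods, called batch A (37 animals) and batch B (28 animals): RYGB-treated (11 and 3), sham-treated (5 and 6), saline-treated (3 and 5) and combination-treated animals (5 and 5) were in both, BWM and lean animals only in batch A, and animals with a single hormone only in batch B.

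Between 20041010 and 36539941 counts lay on genes per library, with a median of 29571658 for batch A and 23386048 for batch B. Summed over 11 hypothalamic marker genes, levels ran from 120.4 to 8330.5 CPM (counts scaled to a common library size), and the same sum over 10 anterior pituitary markers from 4.41 to 77961 CPM, so the amount of pituitary RNA differed widely between libraries. One library stood apart in the level of the members. RYGB replicate 11 had the highest mean level of all 65 libraries although the other RYGB-treated animals lay low, and results resting on it are given with and without it.

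All 76 genes passed the filter on low counts, and the lowest value of any of them in any library was 9.58 counts. Their levels varied over a wide range. Per kilobase of exon, the mean over all animals was highest for Mrpl54 at 98.6 CPM per kb, followed by Mrpl17 at 83.9, Mrps25 at 79.7 and Mrpl27 at 75.1 CPM per kb. Mrpl27 is the homologue of a bacterial protein beside the peptidyl transferase centre. The median over the members was 30.0 CPM per kb. The lowest were Mrpl1 at 9.61, Mrpl40 at 7.71, Mrpl30 at 6.28 and Mrps21l at 1.57 CPM per kb. Mrps21l is named for its likeness to Mrps21, and reads with several places were shared out in fractions, so its counts and those of Mrps21 are uncertain: they were not whole in 83.1% and 87.7% of the libraries. In 12 members more than 50% of the libraries held a value that was not whole, and in 17 members none did. Across all animals the coefficient of variation of single members ran from 9.02% to 36.4%, with a median of 20.5%. The genes were spread over 19 chromosomes, with 12 on chromosome 1, 12 on chromosome 10 and none on chromosome 19. Their exons were short, with a median combined length of 1079 bp and a longest of 3746 bp against 2630 bp over all genes tested, and 73 members were shorter than that.

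The members varied together from animal to animal. When each value was taken as the deviation from the mean of its group and batch, the correlation between members had a median of 0.618 over 2850 pairs of genes, against -0.00586 over pairs of all genes tested. These correlations run over the same 65 libraries and share their depth and scaling. The level of a member correlated with the mean of the other members at a median of 0.799, with over 0.5 in 70 members. Mrps34 at 0.94 and Mrpl20 at 0.938 stood at the upper end. Mrps10 at 0.167, Mrps5 at 0.27, Mrpl3 at 0.289 and Mrpl49 at 0.295 stood at the lower end. Counts of members called below are therefore not counts of independent events.

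The mean of log2(CPM + 1) over the 76 genes gave 1 level per animal. In batch A it was 5.25 ± 0.15 (SD, n = 5) in sham-treated, 4.95 ± 0.24 (n = 11) in RYGB-treated, 5.05 ± 0.23 (n = 7) in BWM, 4.99 ± 0.27 (n = 6) in lean, 4.93 ± 0.05 (n = 3) in saline-treated and 4.86 ± 0.10 (n = 5) in combination-treated animals. In batch B it was 5.40 ± 0.04 (n = 6) in sham-treated, 5.06 ± 0.02 (n = 3) in RYGB-treated, 5.31 ± 0.07 (n = 5) in saline-treated, 5.03 ± 0.05 (n = 4) in PYY3-36-treated, 5.20 ± 0.13 (n = 5) in liraglutide-treated and 5.21 ± 0.13 (n = 5) in combination-treated animals. The sham-treated animals thus had the highest mean of both batches. Of the 14 RYGB-treated animals, 13 lay below the median of the sham-treated animals of both batches, and so did 6 of 7 BWM, 5 of 6 lean and 6 of 8 saline-treated animals. Against the sham median of the same batch, 10 of 11 RYGB-treated animals lay below in batch A and 3 of 3 in batch B. For saline-treated animals it was 3 of 3 and 5 of 5. For BWM and lean animals, all of batch A, the counts were again 6 of 7 and 5 of 6. The exception among the RYGB-treated animals was replicate 11 at 5.54, whereas the next was replicate 6 at 5.19. Among the sham-treated animals, replicate 1 lay lowest at 4.99.

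**Figure D1:**
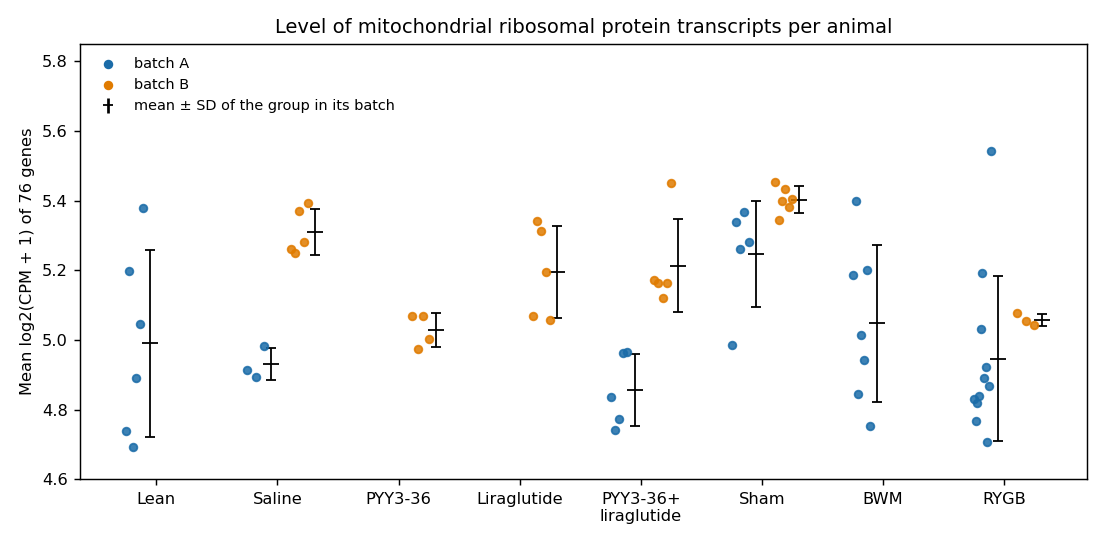
Mean of log2(CPM + 1) over the 76 genes (y axis) for each animal of the 8 groups (x axis), with batch A in blue, batch B in orange and the mean ± SD of a group within its batch in black. Sham-treated animals of batch B sit between 5.34 and 5.45, while RYGB-treated animals of batch A reach from 4.71 to 5.54.

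The comparison of RYGB- with sham-treated animals asks what the operation changes beyond surgery as such. Transcripts of mitochondrial ribosomal proteins were lower in RYGB-treated animals. Of the 76 genes, 43 fell and 0 rose at an adjusted p under 0.05 (edgeR's quasi-likelihood test with group and batch in 1 model of all 65 libraries, Benjamini-Hochberg adjustment over 21871 genes). Over all genes tested, 6.53% were called lower and 6.52% higher. The changes were small: the median log2 fold change of the members was -0.28 (range -0.55 to 0.07), against -0.02 over all genes tested, 75 of 76 were negative, and no member passed an absolute log2 fold change of 1. DESeq2 called 45 members lower, where it called 7.1% of all genes lower, and with edgeR and the 3 rows in lower-case spelling the count was 44. In bulk tissue, fewer cells of a type and less RNA per cell cannot be told apart. The ranges of both groups overlapped for every member. The number of RYGB-treated animals below the sham median was 13 at the median over the members (6 to 14 of 14 animals). That count pools both batches without adjustment, although 11 of 14 RYGB-treated but 5 of 11 sham-treated animals were in batch A. Against the sham median of the same batch, at least 9 RYGB-treated animals of batch A lay below in 66 members. All 3 of batch B did in 68 members. The share over all genes is not given. CPM ranges, medians and counts of animals for single genes below also pool the batches.

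The calls fell in both subunits and in proteins of both origins. Of 26 large-subunit proteins with a bacterial homologue 14 fell (median log2 fold change -0.29), and of 20 large-subunit proteins specific to mitochondria 11 fell (median -0.25). In the small subunit 8 of 16 proteins with a bacterial homologue fell (median -0.28) and 7 of 9 proteins specific to mitochondria fell (median -0.28). Whether these shares differ was not tested.

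**Figure D2:**
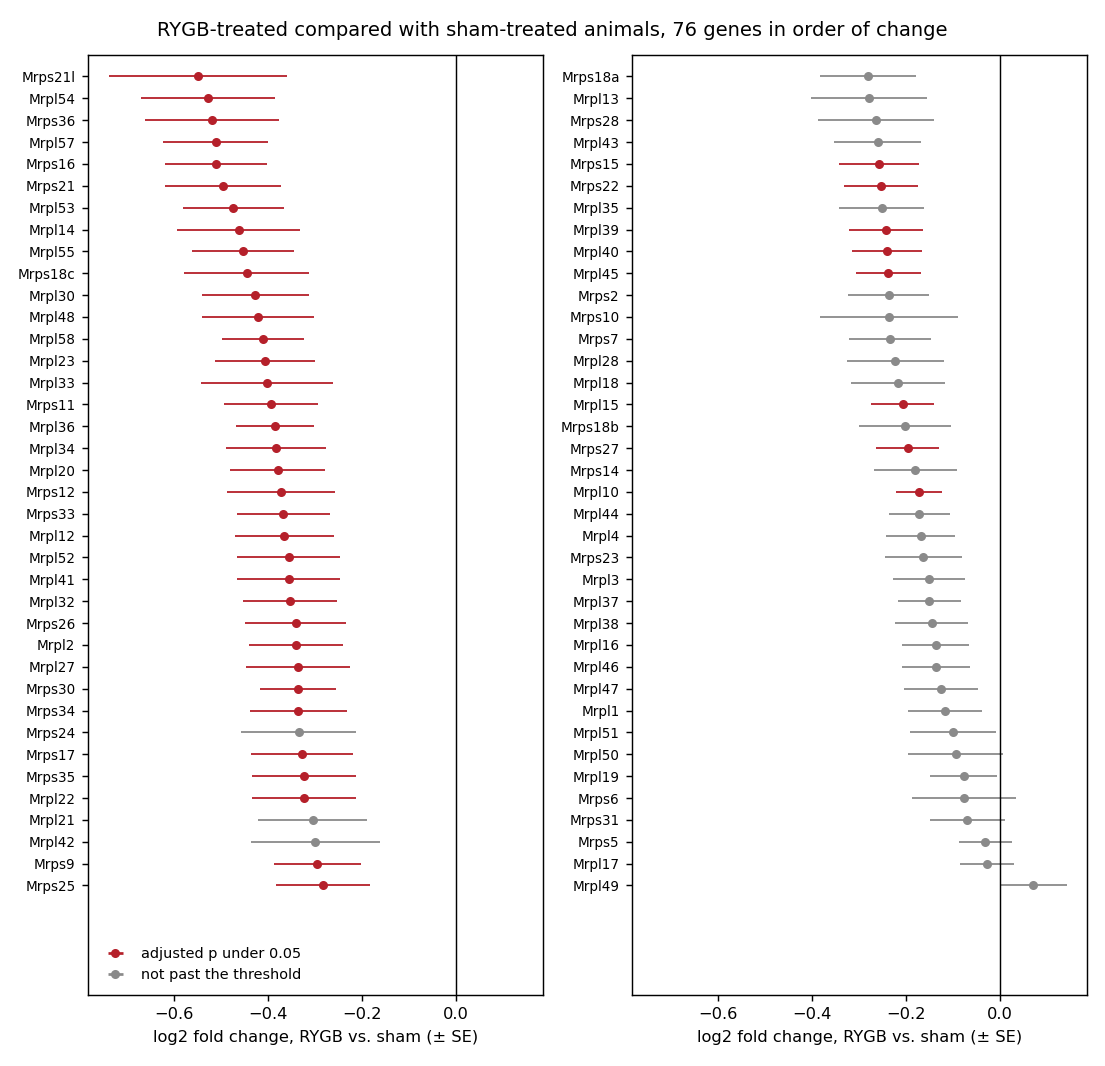
Log2 fold change (x axis, bars give the SE) of each of the 76 genes in RYGB-treated compared with sham-treated animals, ordered from the lowest to the highest. The 43 genes with an adjusted p under 0.05 are red and all of these are negative, and Mrpl49 at 0.07 is the 1 gene above 0.

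In the large subunit, the smallest adjusted p belonged to Mrpl58 (chromosome 10, 103956019 to 103962515 of Rnor_6.0), a peptidyl-tRNA hydrolase that frees unfinished chains from stalled ribosomes. Its level in RYGB-treated animals was 24.0 CPM at the lowest, 29.6 at the median and 40.5 at the highest, compared with 36.2, 41.8 and 47.6 CPM in sham-treated animals. Only RYGB replicates 6 and 11 reached into the sham range. The log2 level of Mrpl58 fell by 0.41 (SE 0.09, adjusted p = 0.00237 with edgeR), with -0.42 within batch A and -0.44 within batch B. Mrpl36 (chromosome 1, 31261370 to 31264715), the homologue of the smallest bacterial large-subunit protein, lay between 8.99 and 13.3 CPM (median 10.7) in RYGB-treated and between 11.5 and 19.3 CPM (median 14.9) in sham-treated animals. All 14 RYGB-treated animals had less than the sham median, and 10 lay below every sham-treated animal. The gene fell by 0.39 (SE 0.08, adjusted p = 0.00264 with edgeR), and it was the 1 member called within batch A alone. Mrpl57 (chromosome 15, 38096994 to 38097856), a large-subunit protein without a bacterial counterpart, ran from 16.6 to 44.4 CPM (median 22.2) after RYGB and from 24.5 to 44.2 CPM (median 36.6) after sham operation. The highest value of both groups belonged to RYGB replicate 11, while 11 RYGB-treated animals lay below every sham-treated one. Mrpl57 fell by 0.51 (SE 0.11, adjusted p = 0.0031 with edgeR).

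The other genes with an Mrpl symbol and the smallest adjusted p were Mrpl53, Mrpl55, Mrpl23, Mrpl30 and Mrpl20. Mrpl23 and Mrpl20 have bacterial homologues, the former beside the exit of the peptide tunnel. Mrpl53 ran from 16.6 to 33.3 CPM (median 19.2) in RYGB-treated and from 19.1 to 35.0 CPM (median 30.1) in sham-treated animals, and it fell by 0.47 on the log2 scale. The log2 fold changes of the other genes named here were -0.45 for Mrpl55, -0.41 for Mrpl23, -0.43 for Mrpl30 and -0.38 for Mrpl20. Their adjusted p-values lay between 0.00389 for Mrpl53 and 0.0115 for Mrpl20 by edgeR.

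In the Mrps group, Mrps16 (chromosome 15, 4351292 to 4353694), the homologue of a bacterial protein needed for small-subunit assembly, came first. It ran from 21.3 to 45.3 CPM (median 25.4) in RYGB-treated animals and from 28.0 to 60.7 CPM (median 42.6) in sham-treated animals. Without replicate 11 the highest RYGB value was 30.1 CPM, below the sham-treated animals other than replicate 1. Mrps16 fell by 0.51 (SE 0.11, adjusted p = 0.00249 with edgeR), with -0.43 within batch A and -0.81 within batch B. Mrps30 (chromosome 2, 51042548 to 51049423) carries a small-subunit name but its protein sits in the large subunit. Its levels were 31.5 to 48.8 CPM (median 36.8) after RYGB and 43.9 to 58.8 CPM (median 51.0) after sham operation, and 13 of 14 RYGB-treated animals lay below every sham-treated one. The gene fell by 0.34 (SE 0.08, adjusted p = 0.00579 with edgeR). The further Mrps genes named by p were Mrps21 (log2 fold change -0.50), Mrps11 (-0.39), Mrps33 (-0.37), Mrps36 (-0.52), Mrps18c (-0.45) and Mrps34 (-0.34), with adjusted p from 0.00681 to 0.0253 by edgeR.

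**Figure D3:**
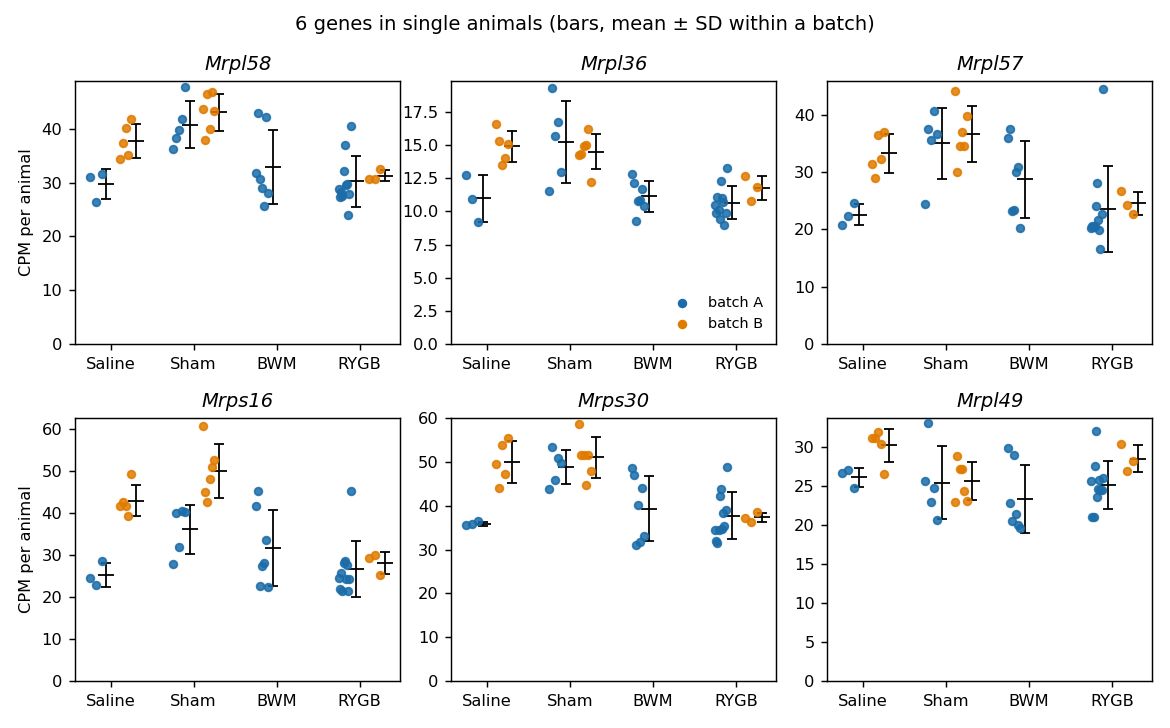
CPM per animal (y axis, from 0) of 6 genes in saline-treated, sham-treated, BWM and RYGB-treated animals (x axis), with batch A in blue, batch B in orange and the mean ± SD of a group within its batch in black. For Mrpl58, Mrpl36 and Mrps30 all RYGB-treated animals lie below the sham median of both batches, and for Mrpl57 and Mrps16 all but replicate 11. Mrpl49 lies between 20.7 and 33.1 CPM in sham-treated and between 21.1 and 32.1 CPM in RYGB-treated animals.

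Some members have roles outside the ribosome or special places in it. Mrps36 is known as a subunit of the 2-oxoglutarate dehydrogenase complex rather than of the ribosome. Its level ran from 17.3 to 47.7 CPM (median 22.7) in RYGB-treated and from 22.2 to 58.1 CPM (median 40.8) in sham-treated animals (adjusted p = 0.0132 by edgeR). Mrpl10 and Mrpl12 form the stalk that recruits translation factors, and both fell, by 0.17 (adjusted p = 0.0161) and by 0.37 (adjusted p = 0.0172). Mrpl45, which lies near the tunnel exit and holds the ribosome to the inner membrane, fell by 0.24 (adjusted p = 0.0179). Mrps12, a protein of the decoding centre, fell by 0.37 (adjusted p = 0.026), and Mrps27, an RNA-binding pentatricopeptide repeat protein, fell by 0.20 (adjusted p = 0.0427). Mrpl44, related to ribonuclease III, missed the threshold with a log2 fold change of -0.17 (adjusted p = 0.0633). Of the genes related to bacterial S18, Mrps18c passed, whereas Mrps18a, whose product is placed in the large subunit, missed it at -0.28 (adjusted p = 0.0569) and Mrps18b missed it at -0.20 (adjusted p = 0.149).

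The genes with no sign of a decrease were few. Mrpl49 (chromosome 1, 221417336 to 221420115), a large-subunit protein specific to mitochondria, had a median of 25.7 CPM in RYGB-treated and 24.7 CPM in sham-treated animals and a log2 fold change of 0.07 (SE 0.07, adjusted p = 0.527). With an offset for exon length it was called higher. Mrpl17 and Mrps5 lay close to 0 as well, each at -0.03. Just inside the threshold, Mrps25 had an adjusted p of 0.0489 and Mrps21l of 0.0451, and just outside, Mrpl43 had 0.0506.

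The promoters of 61 of the 76 genes were matched by gene ID in RefSeq (build GRCr8, 250 bases before to 50 after the start). They were searched on both strands for letters bound by regulators of nuclear-encoded mitochondrial genes: CCGGAAG of the ETS family including GABPA, AAGATGGC of YY1, and the NRF1 motif, a palindrome, with any base allowed at the sixth position. The last 3 letters of the first motif can overlap the first 3 of the second. At least 1 motif was present in 34 of 61 member promoters (55.7%), compared with 24.6% of the promoters of 13250 protein-coding genes tested. CCGGAAG was found in 34.4% of member promoters compared with 15.0%, AAGATGGC in 24.6% compared with 4.66%, and the NRF1 motif in 14.8% compared with 8.38%. Among members that fell in RYGB-treated animals 19 of 37 promoters held a motif, and among the others 15 of 24. Taken singly, CCGGAAG was in 15 of 37 and 6 of 24, AAGATGGC in 5 of 37 and 10 of 24, and the NRF1 motif in 6 of 37 and 3 of 24, and whether these shares differ was not tested. The promoter of Mrps16, the Mrps gene with the smallest adjusted p, held none of the 3 motifs. A match describes letters only, and binding was not measured. To show the motifs in place, the sequences of 4 promoters that hold at least 1 are printed 5′ to 3′ with the matches in capitals: 3 of genes that fell and that of Mrpl49, whose level did not differ past the threshold.
Mrpl57, chr15:36086207-36086506, plus strand: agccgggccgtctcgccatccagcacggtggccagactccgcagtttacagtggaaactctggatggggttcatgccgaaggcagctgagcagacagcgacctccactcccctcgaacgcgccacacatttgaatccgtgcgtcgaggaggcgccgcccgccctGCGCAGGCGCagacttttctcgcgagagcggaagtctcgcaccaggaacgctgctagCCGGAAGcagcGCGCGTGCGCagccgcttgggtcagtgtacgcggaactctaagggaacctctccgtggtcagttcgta
Mrpl36, chr1:31795072-31795371, minus strand: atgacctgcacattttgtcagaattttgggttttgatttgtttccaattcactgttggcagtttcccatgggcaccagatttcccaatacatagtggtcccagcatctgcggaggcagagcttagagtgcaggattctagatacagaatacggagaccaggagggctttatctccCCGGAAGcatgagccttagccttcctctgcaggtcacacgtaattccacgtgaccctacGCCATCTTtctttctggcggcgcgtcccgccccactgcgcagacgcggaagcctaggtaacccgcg
Mrps30, chr2:52195855-52196154, minus strand: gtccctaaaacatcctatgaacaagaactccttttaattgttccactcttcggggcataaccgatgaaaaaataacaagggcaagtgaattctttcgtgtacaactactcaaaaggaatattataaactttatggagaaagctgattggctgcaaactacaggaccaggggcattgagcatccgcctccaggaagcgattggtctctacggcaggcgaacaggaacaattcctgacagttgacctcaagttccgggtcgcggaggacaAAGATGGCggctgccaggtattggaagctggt
Mrpl49, chr1:212779278-212779577, minus strand: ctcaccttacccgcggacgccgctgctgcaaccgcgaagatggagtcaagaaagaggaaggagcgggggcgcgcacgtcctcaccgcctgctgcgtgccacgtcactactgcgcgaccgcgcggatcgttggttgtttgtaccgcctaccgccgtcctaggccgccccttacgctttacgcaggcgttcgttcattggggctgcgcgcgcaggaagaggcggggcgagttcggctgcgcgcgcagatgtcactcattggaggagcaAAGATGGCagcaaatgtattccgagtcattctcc
Mrpl57 thus holds NRF1 and ETS letters, Mrpl36 ETS and YY1 letters, and Mrps30 and Mrpl49 share the YY1 letters near the start of the gene.

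Within each batch the direction was the same. In batch A, 74 of 76 members were negative with a median of -0.28, but 1 member was called, where 1.01% of 21775 genes were called lower. In batch B, which holds 3 RYGB-treated animals, 73 were negative with a median of -0.36 and 35 were called, where 5.53% of 20628 genes were called lower. Of all 76 members, 71 were negative in both batches. The 43 members called over both batches were among these. They had been picked as lower in the same animals, so their sign within the batches is no separate result. A test of the difference between the batches called 0 members (edgeR, 1 at an unadjusted p under 0.05, where 10.4% of all genes were). Single animals moved the count. It was 61 without RYGB replicate 11, where 12.7% of all genes were called lower. Without RYGB replicates 12, 13 and 14, the 3 RYGB-treated animals of batch B, it was 28, 24 and 26, where 4.02%, 3.45% and 3.95% of all genes were lower. Without sham replicates 2, 4 and 5 it was 28, 21 and 22, where 3.8%, 3.75% and 3.01% were lower. When each of the 25 animals was left out in turn, 19 genes were called in every fit, among them Mrpl58, Mrpl36, Mrpl57, Mrps16 and Mrps30. These fits share most of their animals, and the genes named here had been picked by their p with all animals. The share of all genes called in every fit is not given here.

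The result depended on the control group. Compared with saline-treated animals, 0 members were called in RYGB-treated animals (edgeR), and 1 of all genes was (0.00457%). At an unadjusted p under 0.05, 1 member was lower, where 0.951% of all genes were. The median log2 fold change was -0.09, and 72 of 76 were negative. Mrpl58 had a median of 34.7 CPM in saline-treated animals (26.5 to 41.8 CPM) and a log2 fold change of -0.12 in RYGB-treated compared with saline-treated animals. Sham-treated animals in turn had higher values than saline-treated animals: 74 of 76 log2 fold changes were positive, with a median of 0.19, but 0 members were called by edgeR or DESeq2, and 0.0137% of all genes were. At an unadjusted p under 0.05, 29 members were higher, where 6.26% of all genes were. The lowest p belonged to Mrpl30 (log2 fold change 0.41, adjusted p = 0.232) and Mrpl53 (0.37, adjusted p = 0.232). The median reached 0.35 for batch A and 0.09 for batch B, and a test of that difference called 0 members (7 at an unadjusted p under 0.05, where 11.02% of all genes were).

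Other measures moved along with the members. Over all genes tested, the change in RYGB-treated animals followed exon length, with a Spearman correlation of 0.227 across genes, and across the members it was 0.512. Genes share the same libraries here and are not independent replicates. When all genes were divided by length into 10 bins of equal size, the shortest, of up to 874 bp, had a median log2 fold change of -0.26, and the 24 members in it -0.37. The next bin, from 875 to 1310 bp, had -0.14 and its 26 members -0.27. In the fifth bin, from 2145 to 2630 bp, the medians were -0.02 and -0.24 for 9 members. Split by length, 18 of the 25 shortest members, 13 of the next 25 and 12 of the 26 longest fell. The share of all genes called lower, 6.53%, is not split by length here, so these counts lack a background of like length. With an offset for exon length fitted in each library, 35 members were called lower and 1 higher, with a median of -0.19, where 6.83% of all genes were called lower.

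**Figure D4:**
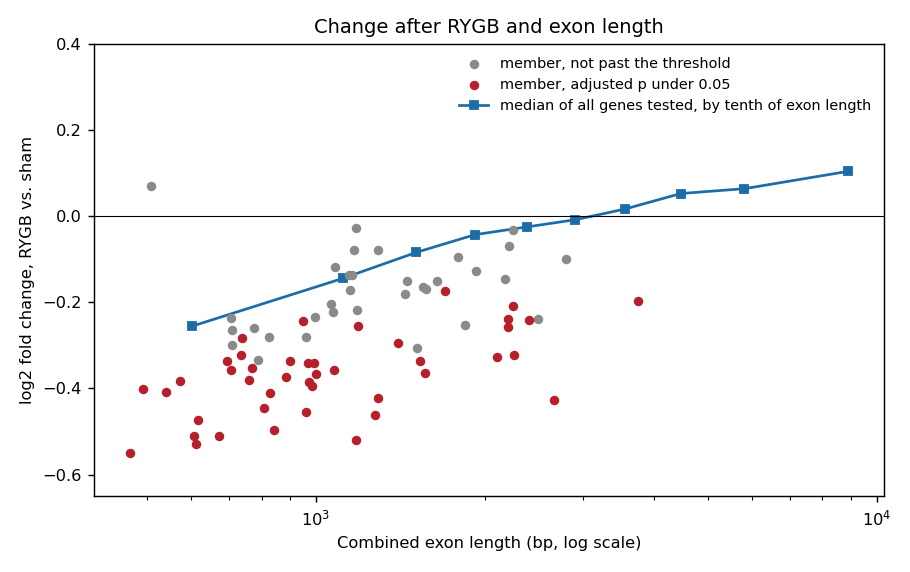
Log2 fold change in RYGB-treated compared with sham-treated animals (y axis) against combined exon length in bp (x axis, log scale) for the 76 genes, with calls in red, and the median of all genes tested in each of 10 bins of exon length as blue squares. Most members lie below the line of all genes, whose shortest bin is at -0.26.

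RNA of the mitochondrial chromosome, which is represented by rRNA and tRNA genes in the table, took a median of 0.86% of the counts in RYGB-treated (0.55% to 1.91%) and 1.82% in sham-treated animals (0.76% to 3.19%). Markers of neighbouring tissue also differed. The CPM sums and percentages of this paragraph pool both batches without adjustment. The sum over 10 rows of meningeal genes had a median of 262 CPM in RYGB-treated and 74.1 CPM in sham-treated animals (55.7 to 2212 and 36.6 to 570 CPM). In batch A it ran from 55.7 to 2212 CPM after RYGB and from 36.6 to 81.0 CPM after sham operation. In batch B the RYGB-treated animals had 88.5, 98.2 and 142.7 CPM, within the sham range there (53.1 to 570 CPM). The sum over 7 striatal genes had medians of 480.2 and 665 CPM (373 to 772 and 254 to 5497 CPM). The choroid plexus sum had medians of 57.1 and 52.9 CPM (9 genes), while in the fit the median log2 fold change of these genes was 1.35, with 6 of 9 higher at an unadjusted p under 0.05 and 1 called higher. The oligodendrocyte sum was 14958 and 22890 CPM at the median, and all 7 genes had negative log2 fold changes (median -0.30), of which 0 were called or passed unadjusted. All 7 astrocyte genes were positive (median 0.24), with 3 higher at an unadjusted p under 0.05 and 0 called. The neuronal sum was 3385 and 4338 CPM (9 genes). None of these markers was at 0 in a whole group. With pituitary, choroid plexus and meninges levels as covariates, 29 members were called lower, with a median of -0.26, where 5.37% of all genes were lower. The part of these measures in the result was not tested beyond that fit.

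Other genes of mitochondrial translation were read in the same fit, where 6.53% of all genes were called lower and 6.52% higher. Subunits without an Mrpl or Mrps symbol included Aurkaip1 (log2 fold change -0.37, adjusted p = 0.0114) and Gadd45gip1 (-0.36, adjusted p = 0.024), the 2 of 5 that fell. Of 26 ribosome assembly factors 7 fell, with a median of -0.16, led by Mpv17l2 (-0.49, adjusted p = 0.00198), the RNA helicase Ddx28 (-0.31) and Malsu1 (-0.37), which keeps the subunits apart during assembly. Of 15 translation factors the release factor Mtrf1 (-0.24) and Rmnd1 (-0.23) fell and Letm1, an ion exchanger of the inner membrane, rose (0.55). Of 22 mitochondrial aminoacyl-tRNA synthetases and related enzymes 3 fell, among them Gatc (-0.23) and Fars2 (-0.24), and Ears2, which charges glutamate, rose (0.77). Of 16 genes for mitochondrial transcription and RNA handling 4 fell, among them the helicase Supv3l1 (-0.19), the DNA-binding protein Ssbp1 (-0.31) and Slirp (-0.39). Of 13 regulators of mitochondrial gene programmes, Sirt3, a deacetylase, fell (-0.25, adjusted p = 0.0348), and the median was 0.03. A count of 1 of 13 is near the share of all genes. Of 38 nuclear subunits of complex I 23 fell (median -0.33), led by Ndufb7 (-0.53), Ndufb4 (-0.44) and Ndufs5 (-0.51), and of 88 cytosolic ribosomal proteins 14 fell (median -0.31). These lists differ in exon length, with medians of 700 bp for complex I, 609 bp for cytosolic ribosomal proteins and 2932 bp for the synthetases.

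In the comparisons of treatments that follow no member was called with all libraries and the batch term, and a missed threshold does not show that levels were the same. Food restriction gave lower values without a call. In BWM compared with sham-treated animals, 0 members were called by edgeR or DESeq2, and 0.32% of all genes were. At an unadjusted p under 0.05, 12 members were lower and 0 higher, where 3.58% of all genes were lower. The median log2 fold change was -0.16 and 70 of 76 were negative. Mrpl36 came closest, with 9.28 to 12.8 CPM (median 10.8) in BWM animals, a log2 fold change of -0.31 (SE 0.10) and an adjusted p of 0.174. Among the genes with an Mrpl symbol, Mrpl10 (-0.17) and Mrpl37 (-0.22) had the next smallest p. Among those with an Mrps symbol, Mrps22 (-0.25), Mrps7 (-0.25) and Mrps30 (-0.23) had the smallest, and none of these genes passed. Mrps28 at 0.04 and Mrpl50 at 0.03 pointed the other way. All BWM animals were in batch A, where only 5 sham-treated animals were. Without the batch term 15 members were called lower, where 3.05% of all genes were. With these 2 groups alone, a fit that also had no batch term, 2 were, where 0.528% of all genes were. Without BWM replicate 1, and with the batch term, there were 2, where 0.307% were. Markers of the anterior pituitary, choroid plexus and meninges were higher in BWM animals. The striatal sum (7 genes) went the other way at the median, with 457 CPM in BWM (266 to 5585 CPM). It was 665 CPM in sham-treated animals of both batches (254 to 5497 CPM). Of 10 anterior pituitary genes 5 rose (median log2 fold change 3.02), and BWM replicate 5 held the highest pituitary sum of all libraries at 77961 CPM. Of 9 choroid plexus genes 2 rose (median 2.06), and of 10 meningeal rows 8 were higher at an unadjusted p under 0.05 (median 1.93) with 0 called. RNA of the mitochondrial chromosome took 0.97% of the counts at the median (0.59% to 1.92%). Without BWM replicate 5 the median of the members was -0.16, and with pituitary, choroid plexus and meninges covariates it was -0.10, with 0 members called by edgeR in both. The part of these measures in the members' values was not tested beyond these fits. Compared with saline-treated animals the median was 0.0452.

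In RYGB-treated compared directly with BWM animals, 0 members were called by edgeR or DESeq2, where 0.343% of all genes were. Unadjusted, 8 members had p under 0.05 and were lower, where 8.23% of all genes were. The median was -0.14 and 71 of 76 were negative. Mrps16 (-0.33, adjusted p = 0.28) and Mrpl57 (-0.33, adjusted p = 0.3) had the smallest p. Without RYGB replicate 11, 1 member, Mrpl57, was called lower, where 0.476% of all genes were.

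In lean compared with sham-treated animals, 0 members were called by edgeR or DESeq2, as were 0% of all genes. Before adjustment, 25 members were lower at p under 0.05, where 5.9% of all genes were. The median was -0.21, with 70 of 76 negative. Mrpl55 (-0.43, adjusted p = 0.249) and Mrpl36 (-0.32, adjusted p = 0.262) had the smallest p, and Mrps5 (0.04) and Mrpl4 (0.03) pointed the other way. The count of calls changed with single animals and with the batch term, since without lean replicate 6 it was 16, where 2.65% of all genes were lower, and without the batch term 26, where 5.61% were. Compared with saline-treated animals the median was 0.00198.

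PYY3-36 had lower values than saline in nearly all members without a call. In PYY3-36-treated animals 75 of 76 log2 fold changes were negative, with a median of -0.24. By edgeR or DESeq2 0 members were called, as were 0% of all genes. Before adjustment, 24 members were lower at p under 0.05, where 3.67% of all genes were. Mrps9, a small-subunit protein with a bacterial homologue, had 37.0, 36.5, 41.2 and 37.1 CPM in the 4 PYY3-36-treated animals. The 5 saline-treated animals of the same batch had 49.6, 48.7, 56.5, 47.9 and 61.2 CPM, and the 3 of batch A had 39.6, 35.5 and 39.8 CPM. Within batch B the groups therefore did not overlap, whereas the saline-treated animals of batch A lay at the level of the PYY3-36-treated ones. Mrps9 had been picked by its p in these same animals, and the share of all genes with such a gap is not given. The log2 fold change of Mrps9 was -0.41 (SE 0.14, adjusted p = 0.652), and that of Mrpl46, the other member with the smallest p, was -0.29 (SE 0.11, adjusted p = 0.652).

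Liraglutide gave differences near 0. The median log2 fold change was -0.07 with 65 of 76 negative, 0 members were called by edgeR or DESeq2, and 0% of all genes were. At an unadjusted p under 0.05, 0 members were lower, where 1.19% of all genes were. Mrps28 (-0.26) and Mrpl16 (-0.15) had the smallest p, both with an adjusted p of 1. The direction of the median was not stable, with 0.0224 without the batch term. Under PYY3-36 + liraglutide the median was -0.11 with 72 of 76 negative. Here 0 members were called by edgeR or DESeq2, where 0.00457% of all genes were, and 1 member was lower at an unadjusted p under 0.05, where 1.67% of all genes were. Mrpl19 (-0.17) and Mrpl27 (-0.23) had the smallest p, both with an adjusted p of 1. The comparisons of this paragraph and the preceding one share the saline-treated animals, and those of RYGB-treated, BWM and lean animals share the sham-treated ones, so they are no independent observations.

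**Figure D5:**
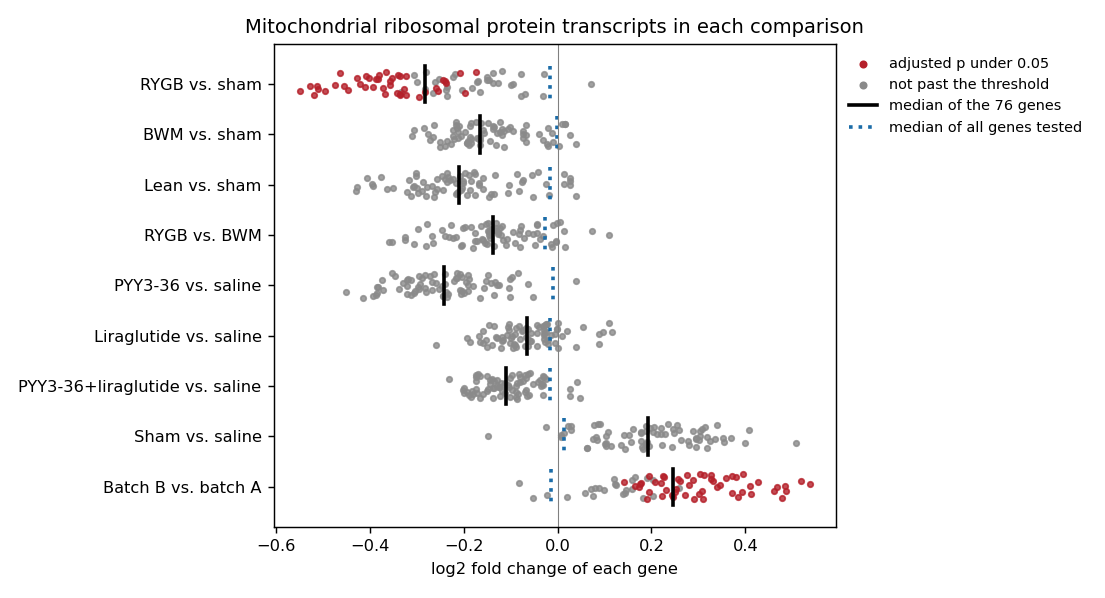
Log2 fold changes (x axis) of the 76 genes in each of 9 comparisons (y axis), with genes past an adjusted p of 0.05 in red, the median of the 76 genes as a black bar and the median of all genes tested as a dotted blue bar. Calls appear in RYGB vs. sham (43 lower) and between the batches (52 higher) only.

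The batches themselves differed. In batch B, 52 members were higher than in batch A and 0 were lower, where 19.3% of all genes were higher, with a median log2 fold change of 0.25 and 73 of 76 positive. Mrpl10 was 53.3 ± 5.1 CPM (SD, n = 5) in sham-treated animals of batch A and 60.8 ± 5.1 CPM (n = 6) in those of batch B. In saline-treated animals it was 47.3 ± 1.9 CPM (n = 3) and 59.7 ± 2.7 CPM (n = 5). Mrpl10 was higher by 0.30 on the log2 scale in batch B (SE 0.04, adjusted p = 4.54e-09). Mrpl46 (0.41), Mrpl44 (0.35) and Mrps14 (0.46) were the next by p. Library fragments were 285 bp in batch A and 335 bp in batch B. The calls of RYGB-treated compared with sham-treated animals come from a model with a term for this difference, and without it 64 members were called, where 13.7% of all genes were lower.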

How the data were processed

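RNA of whole hypothalamus was sequenced in 65 libraries, 1 per animal, with groups and batches taken from the labels. The authors trimmed reads with cutadapt, mapped them with STAR 2.7.2b to Rnor_6.0 and counted them with featureCounts 1.6.4 on the exons of each RefSeq gene of a stranded poly-A library, with multi-mapped reads shared out, so the deposited values are estimated counts on a linear scale with no normalization, and 21.6% of the members' values were not whole (tolerance 1e-06).

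Counts were rounded, which moved no library total by more than 0.00104%. Genes were filtered with edgeR's filterByExpr (minimum count 10, minimum total 15), scaled by TMM and fitted with edgeR 4.0.16 in R 4.3.3 (robust quasi-likelihood, terms for group and batch, all libraries). A gene was called at a Benjamini-Hochberg adjusted p under 0.05 over 21871 genes. SE is an approximate standard error of the log2 fold change, its absolute value divided by the square root of the F statistic of the test. CPM are TMM-scaled, and levels per animal used a pseudocount of 1. Within a batch, groups of at least 3 animals were compared. Alternatives used DESeq2 1.42.0, other scalings, filters, covariates, an exon-length offset (lowess, span 0.3) and fits without single animals, and adding the rows with lower-case symbols was chosen after seeing the data. The steps were tested on simulated data. Depth and group sizes limit the precision, and each value covers the spread between animals.

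Members and gene lists were chosen with earlier results of these data known. Named members were, per comparison, those called with the smallest adjusted p (up to 8 per subunit name for RYGB and BWM vs. sham, up to 4 elsewhere), or, with too few calls, the smallest unadjusted p, plus the 4 highest and 4 lowest per kb, the members with known extra roles, and up to 2 against the main direction. In other lists up to 3 called genes were named. Others, such as those at the threshold and those with low correlation, were named after their values were seen. Same-numbered animals were checked for pairing by correlating their deviations: all 5 liraglutide and saline pairs lay over 0.1 (0.221 to 0.453). The labels name no pairs. In addition, 3 saline-treated animals were in batch A while all liraglutide-treated animals were in batch B, so a pairing is not established. A fit with a block on the replicate number over all libraries changed no call for liraglutide.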

Additional observations from a re-analysis of the deposited data

Results flagged for a closer look

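Among 42 checks of single groups of 4 to 10 animals for a value far from the others, 2 stood out, where chance gives about 1 in 20. Liraglutide replicate 1 had 11.9 CPM of Mrpl36, the lowest of its group, where the next animal had 13.6 CPM. PYY3-36+liraglutide replicate 10 had 40.5 CPM of Mrpl58, the highest of its group, where the next animal had 33.7 CPM. No explanation was tested for either value.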

How the results depend on the processing

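For RYGB vs. sham, all members called under the other settings were lower, except Mrpl49, called higher with the exon-length offset. The count of 43 became 26 without a filter on low counts, 1 in batch A alone, 0 with saline-treated in place of sham-treated animals, and 21 to 61 when 1 animal was left out. With a replicate block, which links animals of all groups by number, it was 28, and between the batches the count with this block was 15 in place of 52. For the fits without a filter and with this block the share of all genes called is not given. A drop among the members can therefore not be told from a drop over all genes there. Numbers did not pair RYGB- and sham-treated animals, since 4 of 11 pairs correlated over 0.1 and 0 correlated best with their own number. The fit with this block changed no other count by over 1.5 times. For BWM vs. sham the count of 0 became 2 with the libraries of both groups alone and 15 without the batch term (0 to 2 without 1 animal). For lean vs. sham it became 26 without the batch term (0 to 16 without 1 animal), and for RYGB vs. BWM 0 to 1 without 1 animal. Median log2 fold changes turned sign against saline-treated animals in BWM (0.0452) and lean animals (0.00198), and for liraglutide without the batch term (0.0224) and with the libraries of both groups alone (0.0224). The cause of these shifts was not tested. BWM and lean animals were in 1 batch, so the batch term rests on the other groups there. Where a group was in 1 batch only, as for BWM, lean and liraglutide-treated animals, the fit of both groups alone held no batch term.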

Other observations

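The 3 rows spelled in lower case are large-subunit genes by symbol. In RYGB-treated compared with sham-treated animals mrpl24 fell by 0.25 in log2 units (SE 0.08, adjusted p = 0.0346 by edgeR), while mrpl11 (-0.21, adjusted p = 0.0616) and mrpl9 (-0.07, adjusted p = 0.524) did not pass the threshold. Between the batches the count of members called higher was 55 with these rows included.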
